A study of Mus musculus with 9 samples.

Results

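Fc receptors and the adaptors that signal for them were examined across RNA-seq libraries of low-MYC and high-MYC mouse embryonic fibroblasts (MEFs). They were 8 genes, found by gene name, of 19769 genes with a value above 0 in at least 1 library. The genes were the Fc gamma receptors Fcgr1, Fcgr2b, Fcgr3 and Fcgr4, the adaptors Fcer1g and Tyrobp, the Tyrobp-coupled receptor Trem2, and the kinase Syk. They were chosen with their values in these 4 libraries known. Every difference of a member between the groups is therefore a description, and no p-value is given for it.

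All 4 RNA libraries came from primary MEFs homozygous for a Myc-Egfp fusion at the endogenous Myc locus, so that GFP reports the MYC protein. Both groups received 20 µM MG-132, an inhibitor of the proteasome, for 6 h, were sorted by GFP into low-MYC and high-MYC cells, and were plated overnight after the sort. Each group had 2 libraries, which are technical replicates of 1 sort. p-values therefore measure only the technical spread between these libraries, and their number limits the precision. The series also holds FUBP1 ChIP-seq of primary MEFs and TACh-seq, a map of nuclease-accessible chromatin, of WT cells and of KOKD cells, in which Fubp1 was knocked out and Fubp2 was knocked down with siRNA.

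Fc gamma receptors bind the constant part of IgG and link antibody-coated particles to phagocytes. Most of them do not signal alone. Fcgr1, Fcgr3 and Fcgr4 pair with Fcer1g, the common gamma chain, whereas Trem2, a lipid and lipoprotein receptor of macrophages and microglia, pairs with Tyrobp (DAP12). The short cytoplasmic tails of Fcer1g and Tyrobp carry an ITAM, a motif with paired tyrosines that Src-family kinases phosphorylate and to which Syk then docks. Fcgr2b is the inhibitory member: its own tail carries an ITIM, which recruits the lipid phosphatase Inpp5d (SHIP1). Apart from Syk, which is expressed more broadly, these genes are known from macrophages and other blood cells rather than from fibroblasts.

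Of the 8 genes, 4 lay together on chromosome 1 of mm10. Fcgr2b (chr1:170958617-170976547, minus strand), Fcgr4 (chr1:171018920-171029761, plus strand), Fcgr3 (chr1:171051174-171064935, minus strand) and Fcer1g (chr1:171229572-171234365, minus strand) spanned 275749 bases. The others were Fcgr1 (chr3:96282909-96293969, minus strand), Tyrobp (chr7:30413760-30417585, plus strand), Trem2 (chr17:48346401-48354147, plus strand) and Syk (chr13:52583173-52648792, plus strand). In high-MYC cells the mean levels of the 4 clustered genes ran from 0.05 for Fcgr4 to 0.352 for Fcgr3.

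The 150 bases before an annotated start of 4 members are shown because each holds the core of the motif of PU.1, a transcription factor of the myeloid lineage. Those before a start of Syk hold it too and are not shown. The core searched was GAGGAA, which reads TTCCTC on the opposite strand, and capitals mark it. The sequences are RefSeq GRCm38.p6, each on the strand of its gene. Fcgr1 is chr3:96293970-96294119 (minus), Fcgr3 chr1:171059404-171059553 (minus), Fcgr4 chr1:171018776-171018925 (plus) and Trem2 chr17:48346251-48346400 (plus).
Fcgr1: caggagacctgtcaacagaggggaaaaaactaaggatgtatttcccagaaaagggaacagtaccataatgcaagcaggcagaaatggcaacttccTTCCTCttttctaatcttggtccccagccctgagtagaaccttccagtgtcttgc
Fcgr3: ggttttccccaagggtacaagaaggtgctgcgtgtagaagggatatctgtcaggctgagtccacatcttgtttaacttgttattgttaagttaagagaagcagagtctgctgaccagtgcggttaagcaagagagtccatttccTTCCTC
Fcgr4: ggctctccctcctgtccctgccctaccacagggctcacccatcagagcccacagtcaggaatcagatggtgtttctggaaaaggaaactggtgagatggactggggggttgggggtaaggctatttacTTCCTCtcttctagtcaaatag
Trem2: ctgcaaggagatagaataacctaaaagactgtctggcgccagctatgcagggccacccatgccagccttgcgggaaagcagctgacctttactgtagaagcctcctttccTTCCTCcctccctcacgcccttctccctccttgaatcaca

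The core lay 55 bases before the start of Fcgr1, 6 before that of Fcgr3, 22 before that of Fcgr4 and 40 before that of Trem2, counted from its first base. The core also lay 15 bases before another RefSeq start of Fcgr3 and 9 before a start of Syk. It was found on either strand in at least 1 promoter window (250 bases before to 50 after a start) of 5 of the 7 members that RefSeq's promoter table holds, the fifth being Syk. It is a short motif: 28.3% of all 32851 windows of 300 bases held it, and 6 of the 9 windows of these members. Fcgr2b and Fcer1g had no match, and Tyrobp had no entry. The longer GAGGAAGT, which overlaps the core, was held by 3.20% of all windows and by 1 member, Fcgr4. In Fcgr1, Fcgr3 and Trem2 the core continued into a second GGAA. The share of all windows that held this doubled form was 0.493%, and the form was chosen after the sequences were seen. The E-box CACGTG, the motif bound by MYC with MAX, is its own reverse complement. It was added to the search afterwards and was found in 7.15% of windows and in none of the members. A match is only a description of these letters, and binding was not measured.

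Before the members, the scale of the comparison needs stating. Values are fragments per kilobase (FPK) divided by a score from ERCC spike-in RNA that was added in proportion to cell number, so levels are per cell. On this scale nearly every gene was higher in high-MYC cells. Myc itself was 9.81 and 9.86 in the low-MYC libraries and 20.3 and 20.5 in the high-MYC libraries, a ratio of 2.07. In the 11870 genes whose mean reached 0.1, the median log2 difference was 1.03 and the median ratio was 2.26. The limma test (adjusted p under 0.01 and at least 2-fold) called 6540 of them higher, 55.1%, and 0 lower. Without the fold limit 3 genes were lower at that adjusted p, and 5 at an unadjusted p under 0.05. When all libraries were set to a common median, which removes that general rise, 65 genes (0.548%) were higher and 6 lower.

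The receptors that bind IgG were near the detection limit in low-MYC cells. Fcgr3, the activating receptor for IgG complexes, was 0.00285 and 0.00159 normalized FPK in the low-MYC libraries and 0.333 and 0.370 in the high-MYC libraries. The values of Fcgr2b, the inhibitory receptor, were 0.00121 and 0.000243 against 0.288 and 0.294. Neither gene's groups overlapped, and the high-MYC libraries agreed closely. The ratio of the means was 159 for Fcgr3 and 400.0 for Fcgr2b.

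The other IgG receptors had lower values in high-MYC cells. Fcgr1, the receptor that binds monomeric IgG with high affinity, was 0.000393 and 0.00118 in low-MYC libraries and 0.0371 and 0.0479 in high-MYC libraries, a ratio of 53.9. Fcgr4, an activating receptor of monocytes and neutrophils, was 0.00722 and 0.00725 against 0.0450 and 0.0550, a ratio of 6.91. Fcgr4 had a higher mean low-MYC level and a lower high-MYC level than its chromosome 1 neighbours. The low-MYC means of all 4 clustered genes were under 0.01, and how many fragments they rest on is not known, as said below. The high-MYC values of Fcgr1 and Fcgr4 overlapped each other.

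**Figure D1:**
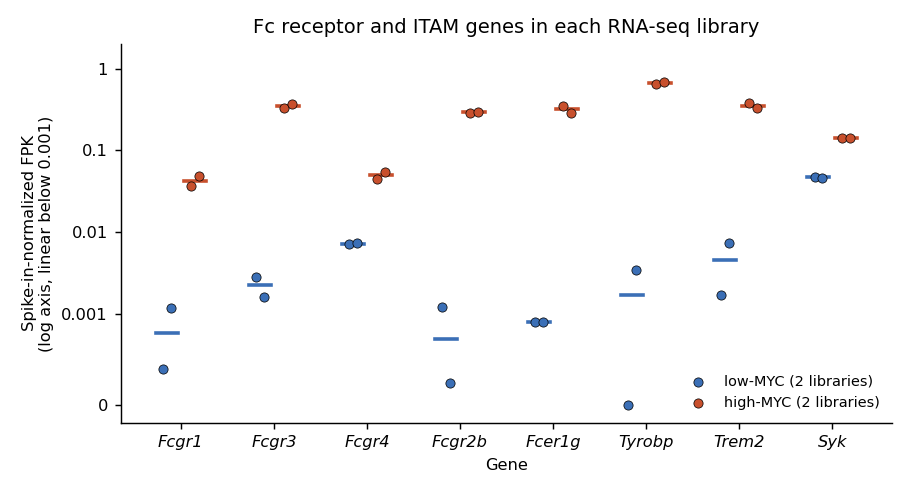
Normalized FPK of the 8 genes in each of the 4 libraries, on a vertical axis that is logarithmic above 0.001 and linear below it; each point is 1 library and each bar a group mean. Syk was the only one of the 8 with a low-MYC mean above 0.01, at 0.047, and Tyrobp had the highest high-MYC values, 0.645 and 0.678.

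The signalling adaptors were separated as sharply. Fcer1g was 0.000908 and 0.000911 in low-MYC libraries and 0.346 and 0.288 in high-MYC libraries, a ratio of 349. Tyrobp was listed at 0 in low-MYC replicate 1 and at 0.00342 in replicate 2, and was 0.645 and 0.678 in the high-MYC libraries, a ratio of 387. Tyrobp thus had the highest deposited value of the 8 genes in high-MYC cells. It exceeded Fcer1g by a ratio of 1.86 and 2.36 in high-MYC replicates 1 and 2, and its partner Trem2 by 1.72 and 2.07.

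Trem2, which is expressed by macrophages, microglia and osteoclasts, was 0.00169 and 0.00733 in the low-MYC libraries and 0.375 and 0.328 in the high-MYC libraries, a ratio of 78.0. Its low-MYC SD, 0.00399, was the largest of the 8, but both values lay far under the high-MYC values. Syk behaved differently in size. It was 0.0477 and 0.0463 against 0.143 and 0.143, a ratio of 3.04, or 1.35 times the ratio of the median tested gene. Syk ranked 12386 of all genes in low-MYC cells and 11819 in high-MYC cells. Tyrobp went from rank 17859 to 7938, and Fcgr3 from 17559 to 9687. Fcgr4 moved less, from 15958 to 14120. The low-MYC ranks of all but Syk rest on means under 0.01.

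In high-MYC cells the order of deposited values began with Tyrobp, whose 2 values lay above those of every other member. The length that each value was divided by is not certain, as said below. This order, the ranks and the ratios between genes may therefore not be those of transcript numbers. Trem2, Fcgr3 and Fcer1g overlapped each other, and Fcgr2b, with means of 0.291 against 0.317, overlapped Fcer1g but lay below Fcgr3 and Trem2. Fcgr3 exceeded Fcgr2b by a ratio of 1.16 and 1.26 in replicates 1 and 2. Syk came next, and Fcgr4 and Fcgr1 formed an overlapping pair at the bottom. In low-MYC cells Syk was highest, and the order among Fcgr4, Trem2, Fcgr3, Tyrobp, Fcer1g, Fcgr1 and Fcgr2b ran from 0.00724 to 0.000728, with each neighbouring pair overlapping.

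Across the 8 genes the ratio of means ran from 3.04 to 400.0, with a median of 118. The groups did not overlap for any of the 8, but 92.5% of all 19769 genes were also higher in both high-MYC libraries than in both low-MYC libraries. A ratio over 5 was seen in 7 of the 8, against 4.67% of all genes. The genes were selected on this contrast, so nothing is read from these shares. Only 5 of the 8 (Fcgr2b, Fcgr3, Fcer1g, Tyrobp and Trem2) passed the minimum mean, and they passed through the high-MYC libraries.

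**Figure D2:**
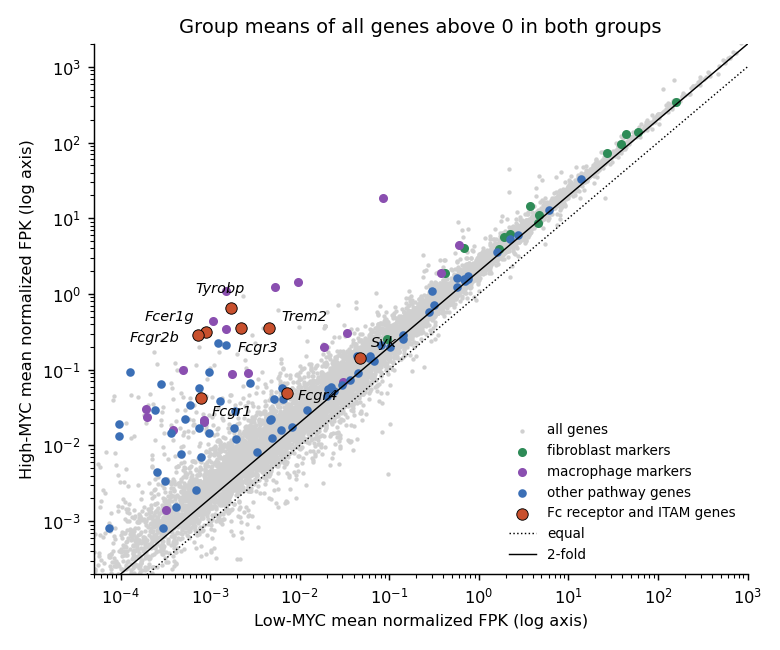
Mean normalized FPK in low-MYC (horizontal) and high-MYC cells (vertical), both axes logarithmic, for genes above 0 in both groups. Each dot is 1 gene, with the 8 genes, the other pathway genes and the macrophage and fibroblast markers in colour, a dotted line at equal level and a solid line at 2-fold. Fibroblast markers have ratios from 1.85 to 6.01 and Syk one of 3.04, within that range, and the other 7 genes lie above it, with ratios from 6.91 to 400.0.

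The size of most of these ratios is poorly fixed, because the low-MYC means of all but Syk lay under 0.01. What 1 fragment is worth was estimated from the steps between the lowest values of genes with 1 annotated transcript. With the shortest complete coding transcript as the length, the low-MYC values of Tyrobp came to about 0 and 0.442 fragments. Those of Fcer1g came to about 0.140 in each library. Such parts of 1 fragment are not counts of reads, so this length may not be the one that the values were divided by. The whole span of each gene, introns included, is longer and would give more fragments. How many fragments the low-MYC values rest on is therefore not known. An interval of counting error needs the number of fragments, so none is given for the ratios. The estimate of what 1 fragment is worth is also approximate. Between 42.0% and 45.4% of low values came within 0.1 of a whole fragment, where an even spread gives 20%.

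On the log2(value + 0.1) scale, where the pseudocount shrinks the difference of genes of low level, the differences were 2.90 for Tyrobp, 2.14 for Fcgr3, 2.11 for Trem2, 2.04 for Fcer1g and 1.96 for Fcgr2b. They were 0.73 for Syk, 0.50 for Fcgr1 and 0.48 for Fcgr4. The last 3 lay below the median of tested genes, 1.03, on this scale, although their ratios of means lay above the median ratio. After rescaling to the same median the 8 differences ran from 0.19 for Syk to 2.40 for Tyrobp, all above 0.

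Fcgr2b and Fcgr3 are similar in sequence. Of the 50-base words of their transcripts, 6.72% of those of Fcgr2b and 10.2% of those of Fcgr3 were shared with another gene, 166 of them with each other, so some reads could have been split between these genes. Words of the other 6 members were not shared. The antisense gene Gm38204 overlaps Fcgr2b, the microRNA gene Mir6546 lies within Fcgr3 and Gm26110 within Fcgr4. Of these, only the first lies on the opposite strand, and the library kit keeps strand, though whether the quantification used it is not given in the sources used here.

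The rest of the pathway was described with lists of 97 further genes, of which 70 were in the table and 22 passed the minimum mean. On the limma test 12 of the 22 were at least 2-fold higher and 0 lower, against 55.1% of all tested genes, and their median log2 difference was 1.04 against 1.03. The fold limit was set on log2(value + 0.1), which shrinks the differences of genes of low level. With a pseudocount of 0.01 the 12 pathway genes became 19, and the 6540 of all 11870 tested genes became 10076. Of the 22, 5 (Clec4d, Pirb, Pik3cd, Skap2 and Vav2) had a low-MYC mean under 0.1 and passed only through the high-MYC libraries, so their values are given as a description. Of the other 17, 10 were at least 2-fold higher, with a median log2 difference of 1.07, and 0 were called after rescaling. The tested pathway genes thus moved, at the median, about as far as all tested genes. Of the 70 genes, 31 had a ratio of means over 5, against 4.67% of all genes, and 4 were listed at 0 in both low-MYC libraries. Several genes of these lists are also on a list that the study made from these libraries, as are Fcgr3 and Trem2, so their direction is not independent evidence.

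Other immunoglobulin-binding receptors were mostly scarce: 7 of 13 were in the table. Both tested genes were higher in high-MYC cells, and 1 of the 2 was called at least 2-fold higher, against 55.1% of all tested genes. Fcgrt, the neonatal Fc receptor that recycles IgG and albumin in many cell types, averaged 0.564 in the low-MYC libraries and 1.61 in the high-MYC libraries (log2 difference 1.36 ± 0.0479 SE, limma adjusted p = 1.04e-05), and 0.30 after rescaling. Trim21, a cytosolic antibody receptor, had a ratio of means of 2.26. Its log2 difference with the pseudocount of 0.1 was 0.97, under the 2-fold limit of the test. Fcrls, a scavenger-type Fc receptor homologue of myeloid cells, was listed at 0 in both low-MYC libraries and at 0.111 and 0.116 in the high-MYC libraries. It was named after its values were seen.

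Other ITAM-coupled receptors numbered 8 in the table of 20 listed, and Clec4d alone passed the minimum mean. Clec4d, a C-type lectin that signals through Fcer1g, averaged 0.00149 in the low-MYC libraries and 0.215 in the high-MYC libraries, a log2 difference of 1.64, and of 1.25 after rescaling. It passed through the high-MYC libraries, so no p-value is given for it. Of 7 other signalling adaptors with ITAMs or similar motifs, 1 was in the table, Cd247, with no library above 0.0012. The lectin Clec4n (Dectin-2), another Fcer1g partner, was too low to test but went from 0.000127 to 0.0919. It was named after its values were seen. Of the 8 receptors, 6 had a ratio of means over 5, against 4.67% of all genes, while Clec7a and Oscar had ratios of 2.54 and 2.74.

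Among 14 further kinases, 12 were in the table, 6 were tested and 2 were called at least 2-fold higher, against 55.1% of all tested genes. Src (0.674 and 1.57, log2 difference 1.11) and Csk (1.60 and 3.53, 1.09), which restrains Src-family kinases, were at least 2-fold higher. After rescaling their log2 differences were 0.04 and -0.04. Fyn and Yes1, Src-family kinases of many cell types, had log2 differences of 0.67 and 0.82 and ratios of means of 2.0 and 2.04. These values lie under the medians of all tested genes. Btk, a kinase of B cells and myeloid cells, had a ratio of means of 40.1, and Lyn, a Src-family kinase that phosphorylates ITAMs and ITIMs, had one of 2.04. Both were below the minimum mean and were named after their values were seen.

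Of 21 scaffolds and effectors, 8 were tested and 3 were at least 2-fold higher, against 55.1% of all tested genes. These were Plcg1, which cleaves PIP2 (log2 difference 1.11), Bcl10 of the CARD-BCL10-MALT1 complex (1.07) and the adaptor Grb2 (1.02). After rescaling their log2 differences were 0.02, -0.08 and -0.03. Of all 21, 8 had a ratio of means over 5, against 4.67% of all genes. Vav1, a guanine nucleotide exchange factor, was listed at 0 in both low-MYC libraries and at 0.0203 and 0.0221 in the high-MYC libraries, and Card9 was listed at 0 and then at 0.0212 and 0.0202. Rac2, the blood-cell Rac GTPase, went from 0.00096 to 0.0942. Plcg2 and Lat, signalling proteins of blood cells that are also on the list, had ratios of means of 2.46 and 2.57. These 5 genes were chosen after their values were seen.

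Of 22 inhibitory receptors and phosphatases, 21 were in the table, and 5 passed the minimum mean. Of these, 4 did so in both groups and were at least 2-fold higher, against 55.1% of all tested genes. Inppl1 (6.04 and 12.8), Ptpn11 (2.22 and 5.31) and Dok1 (13.8 and 33.2), which fibroblasts express, had log2 differences of 1.07, 1.22 and 1.26. After rescaling they were -0.09, 0.08 and 0.09. Sirpa, the receptor for CD47, was 0.303 and 1.09 (log2 difference 1.56, and 0.56 after rescaling). Pirb, an ITIM receptor of myeloid cells, was 0.00121 and 0.225, a log2 difference of 1.68, and of 1.29 after rescaling. It passed only through the high-MYC libraries, so no p-value is given for it either.

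**Figure D3:**
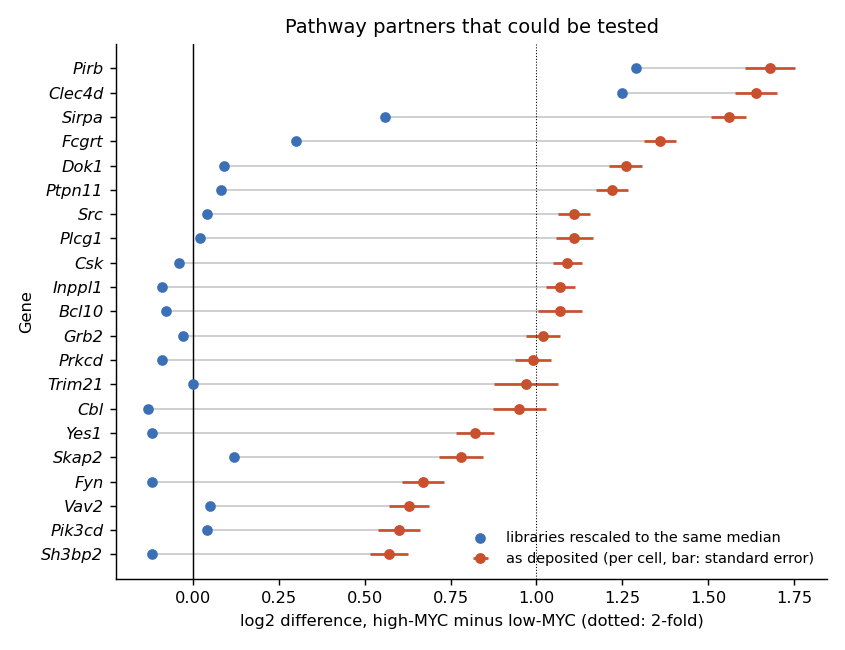
Log2 difference, high-MYC minus low-MYC, of log2(value + 0.1) for 21 of the 22 pathway genes tested, as deposited (red, bars are the standard error) and with libraries rescaled to the same median (blue); the dotted line marks 2-fold. Most genes drop to near 0 on rescaling, from -0.13 for Cbl upward, while Pirb (1.29) and Clec4d (1.25), which passed the minimum mean only through the high-MYC libraries, stay above 1.

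The genes closest in pattern to the adaptors and Fcgr3 over the 4 libraries, by Euclidean distance of log2(value + 0.01), were genes known from macrophages. For Fcgr3 they were Laptm5 (distance 0.17), Ccl3 (0.46) and Lilr4b (0.54). For Fcer1g they were Laptm5 (0.29), Ccl3 (0.35) and Ms4a7 (0.58), and for Tyrobp Wfdc17 (0.61), Pf4 (0.74) and C1qb (0.85). With 4 libraries in 2 groups such distances reflect little more than a like level in each group.

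Markers of other cell types were read in the same libraries. All 20 macrophage markers were in the table. Their summed level was 1.00 and 1.35 in the low-MYC libraries and 29.7 and 31.0 in the high-MYC libraries. Lyz2 alone gave 18.0 and 18.9 of the high-MYC sums, and Cd68 gave 0.549 and 0.661 of the low-MYC sums. A ratio of means over 5 was seen in 17, against 4.67% of all genes. Cd14 (5.0), Cx3cr1 (4.39) and Mertk (2.28) had smaller ratios. Adgre1 (F4/80) and Spi1 (PU.1) were listed at 0 in 1 low-MYC library and at most at 0.000393 in the other, and reached 0.0278 and 0.0327, and 0.0228 and 0.0255, in the high-MYC libraries. Fibroblast markers summed to 345 and 350 in low-MYC and 827 and 845 in high-MYC libraries, with a median ratio of 2.70, so both groups carried the labelled cell type. Most macrophage markers thus moved with Fcer1g, Tyrobp and the Fc receptors, and their part in the difference was not tested.

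Other blood-cell markers were at lower levels, and some moved too. The 3 neutrophil markers in the table, of 10 listed, summed to 0.0597 and 0.0949 in low-MYC and 0.587 and 0.615 in high-MYC libraries, with ratios of means of 7.26 for S100a8, 16.9 for Mmp8 and 26.1 for Camp. Those of mast cells, 4 of 9, summed to 0.0016 and 0.00638 against 0.0235 and 0.0148, and those of NK cells, 3 of 8, to 0.0386 and 0.0421 against 0.0723 and 0.0772. The 3 of 6 osteoclast markers summed to 0.580 and 0.583 against 1.33 and 1.33, nearly all of it Ctsk (means 0.577 and 1.29), which fibroblasts also express, while Atp6v0d2 had a ratio of 64.4. None of the 6 B-cell and 7 T-cell markers was in the table. In such bulk samples a change in the number of cells of a type and a change in RNA per cell cannot be told apart.

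The TACh-seq table gave an independent view of the chromatin of the same genes. The labels of all 4 samples point to a single table, whose own name mentions only WT and which has no column for the sample. Which samples its reads come from is therefore not known, and the 2 genotypes were not compared. It lists 4881417 reads. Within 500 bases of the gene start as GENCODE annotates it, 59.5% of the 19769 genes had at least 1 read. Only 2 of the 8 genes did, Fcgr3 with 61 reads and Fcgr4 with 18, at percentiles 49.0 and 41.8 of all genes. At the starts of Fcgr1, Fcgr2b, Fcer1g, Tyrobp, Trem2 and Syk the table lists 0 reads. It holds reads in separate islands, so 0 listed reads does not bound the accessibility there.

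Listed reads followed the RNA level. Of 4310 genes with a low-MYC mean under 0.01, 27.1% had a read at the start, with a median of 84 reads among those that did, against 83.7% and a median of 132 for 5608 genes whose mean reached 1. Among the members Syk, with a low-MYC mean of 0.047, had no listed read at its annotated start, while Fcgr3 and Fcgr4, both under 0.01, had some. The members did not follow the order of the RNA levels.

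**Figure D4:**
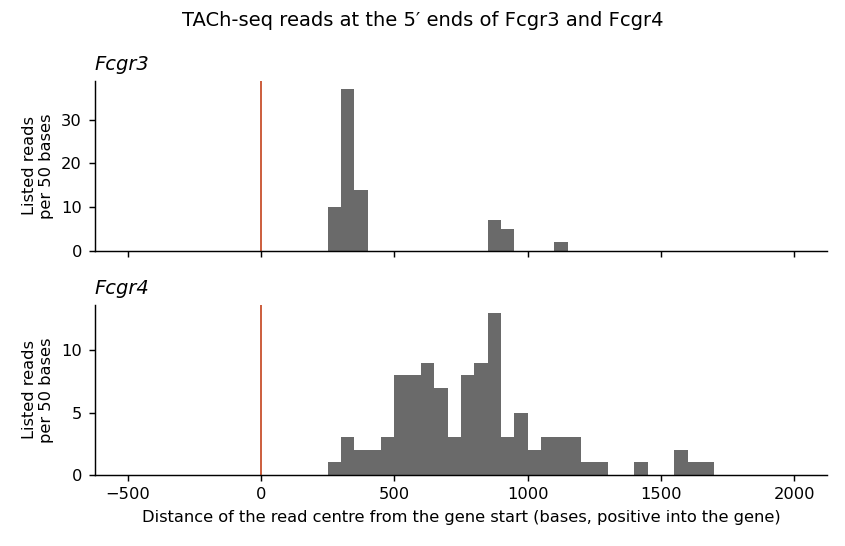
TACh-seq reads listed at Fcgr3 (top) and Fcgr4 (bottom), from a table that does not tell samples or genotypes apart, per 50 bases of distance of the read centre from the GENCODE gene start (vertical line), positive into the gene. The reads of Fcgr3 form a narrow pile and those of Fcgr4 a broader one, both inside the gene as GENCODE annotates it. The pile of Fcgr3 lies upstream of the RefSeq start.

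The island in Fcgr3 (chr1:171063782-171064694, 75 reads) lay 241 to 1153 bases into the gene as GENCODE annotates it, over Mir6546. It lay 4379 bases upstream of the RefSeq start shown above, so by that annotation it is outside the gene. Its reads had a median mapping score of 31, against 42 in the other islands near members. In Fcgr4 the island chr1:171019134-171020635 (102 reads) lay 214 to 1715 bases into the gene. A further island between Fcgr4 and Fcgr3, chr1:171033004-171034735, held 89 reads and lay in neither gene. The densest 150 bases of the islands in Fcgr3 and Fcgr4 are shown because they are the most densely read sequence inside these genes as GENCODE annotates them. These windows lie at chr1:171064507-171064656 for Fcgr3 and chr1:171019674-171019823 for Fcgr4, both on the plus strand. They are written in lower case throughout because neither holds the core GAGGAA.
Fcgr3 window: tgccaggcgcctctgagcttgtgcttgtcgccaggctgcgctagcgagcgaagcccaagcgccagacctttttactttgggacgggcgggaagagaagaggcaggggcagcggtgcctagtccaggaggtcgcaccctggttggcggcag
Fcgr4 window: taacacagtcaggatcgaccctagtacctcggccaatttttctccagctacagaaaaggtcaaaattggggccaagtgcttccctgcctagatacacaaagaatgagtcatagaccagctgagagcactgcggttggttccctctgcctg

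The Fcgr3 window held 61 reads and was 65.3% G and C, and the Fcgr4 window held 31 reads and was 50.0% G and C. Fcgr1 and Tyrobp had islands only in their neighbourhood. The one beyond the end of Fcgr1 held 178 reads at Gm42743, and the one beyond Tyrobp held 84 reads at Nfkbid, an inhibitor of NF-kB. The FUBP1 ChIP-seq peak list used here holds 166 peaks, all on chromosome 15, where none of the 8 genes lies, so it holds no value for them.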

How the data were processed

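RNA-seq reads had been trimmed by the authors at 3′ bases of quality under 20, mapped with TopHat against mm10 transcripts and quantified by expectation-maximization in Partek. Fragments per kilobase were then divided by a score formed as the geometric mean of 10 spiked ERCC transcripts. The deposited signal values are thus relative to cell number. The deposited values summed to 46321 and 48291 in the low-MYC and 102853 and 109090 in the high-MYC libraries. Total counts are not given in the sources used here, and the fragments estimated from the steps of low values depend on the gene length used. TACh-seq reads were aligned to mm10 with Bowtie2, and the deposited table gives positions and a mapping score for each read. FUBP1 peaks were called with SICER in 200 bp windows against input. Versions of these tools are not given in the sources used here.

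log2(value + 0.1) was compared with limma 3.58.1 (eBayes with trend) in R 4.3.3 over 11870 genes with a mean of at least 0.1, with Benjamini-Hochberg adjustment. The procedure was tested on simulated data. The 8 genes, the lists and the tests were chosen with earlier results of these data known. Named genes are the 8, Myc, the marker genes, the genes closest in pattern, and pathway genes with the 3 largest and 3 smallest differences of each list or a value of at least 1. Some other pathway genes were named after their values were seen, as said where they appear. Sequences are RefSeq, GRCm38.p6. Of the 8, 7 matched its promoter table. The values of 1 tested pathway gene are not reported here.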

Additional observations from a re-analysis of the deposited data

How the results depend on the processing

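Of all tested genes, 6540 were at least 2-fold higher, and 12 of 22 pathway genes. A pseudocount of 0.01 gave 10076 and 19, the same with a minimum mean of 0.01 gave 11482 of 16489 and 40 of 52, rescaling to the same median gave 65 and 2, and any fold change gave 11530 and 22. Genes lower numbered 0, with 6 after rescaling and 3 at any fold change. Leaving out 1 library gave 5683 to 7374 genes higher, 0 to 1 lower and 10 to 15 pathway genes higher. The median log2 difference of the 8 genes, 2.0, became 4.74 with a pseudocount of 0.01 and 1.58 after rescaling, and 1.95 to 2.02 without 1 library. That of the pathway genes, 1.04, became 1.14 with the smaller pseudocount, 0.41 with no minimum (70 genes), 1.18 with both changed and 0.01 after rescaling, and 0.99 to 1.07 without 1 library. All 8 genes stayed above 0 with the pseudocount of 0.01, after rescaling and without each library. Members with reads at the start stayed at 2 in the TACh-seq alternatives. The longer motif moved the share of promoters from 28.3% to 3.20% and the members from 5 to 1. With the replicate number as a block 6556 genes were higher. Over 11870 genes, the log2 difference between replicates 1 and 2 of low-MYC cells correlated at 0.081 with that of high-MYC cells. The replicate numbers were therefore not taken to pair the samples. A search for an ITAM pattern in proteins was planned and not run. Low-MYC means under 0.01 limit 7 of the 8 ratios, and the cause of the changes with pseudocount and scaling was not tested further.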
